A study of Saccharomyces cerevisiae with 10 samples.

Results

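The zinc homeostasis genes described here are ZRT1, ZRT2, ZRT3, ZRC1, ZPS1 and ZAP1 of the yeast Saccharomyces cerevisiae. They were chosen by name, as the probe sets that the authors' deposited annotation assigns to those symbols. All 6 were found, among 5654 named genes tested, and each had 1 probe set that is not shared with another gene. Cells of strain TMB3500 were grown in aerobic batch culture at 30 °C and pH 5 on 20 g/L glucose with trace metals and vitamins, and then fed. One feed was spruce hydrolysate used without detoxification, a sugar-rich wood liquor that also carries compounds released or formed when the wood is broken down. The other was a mixture of glucose, mannose and xylose with sugar concentrations like those of the hydrolysate. Feeding rose from 0.04 to 0.1 L/h over 16 h, so that 1 L of feed was added to 0.7 L of batch culture. Each of 5 conditions was sampled as 2 biological replicates, giving 10 single-colour Affymetrix arrays of total RNA. The conditions were the moment feeding began (0 h), called the start here, and either feed after 9 h or 18 h. The labels name a single strain, do not give the zinc content of either feed, and do not say whether samples of 9 h and 18 h came from the same reactor.

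Zinc is needed by many yeast enzymes and is toxic in excess, so uptake and storage are tightly regulated. When zinc is scarce, the transcription factor Zap1 activates genes for uptake, for release of zinc from the vacuole and for its own synthesis. ZRT1 encodes the high-affinity and ZRT2 the low-affinity zinc transporter of the plasma membrane. ZRT3 encodes the exporter of stored zinc from the vacuole and ZRC1 the vacuolar importer, which also protects cells when zinc arrives suddenly. ZPS1 encodes a surface protein regulated by zinc and pH and is a Zap1 target, and ZAP1 the activator itself. ZRT2 is known to respond to Zap1 in both ways, activated in mild and repressed in severe zinc shortage.

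In the annotation of the authors' deposited table, ZRT1 (YGL255W) lies on chromosome VII from 20978 to 22108, next to ADH4, a further Zap1 target. ZRT2 (YLR130C) lies on chromosome XII from 402794 to 404062 and ZRT3 (YKL175W) on chromosome XI from 118793 to 120304. ZRC1 (YMR243C) lies on chromosome XIII from 754838 to 756166, ZPS1 (YOL154W) on chromosome XV from 34658 to 35407, and ZAP1 (YJL056C) on chromosome X from 330431 to 333073. The start and end of all 6 are the same in the RefSeq annotation of assembly R64. These are coding sequences, and the arrays read the messages near their 3′ ends.

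All levels are log2 intensities after robust multi-array averaging (RMA), so a difference of 1 is a 2-fold difference. Values of different genes come from different probes, and levels are therefore compared only within a gene. All 6 genes exceeded the background, set by the Schizosaccharomyces pombe probe sets of the same array (4.67 to 4.9), on 10 of 10 arrays. The number of arrays limited the precision, and the correlation of a replicate pair over genes was lowest in hydrolysate at 9 h (0.971) and highest in the sugar feed at 18 h (0.996). In 8 control genes read near both message ends, the 3′ minus 5′ signal at 9 h was 0.96 ± 0.049 with hydrolysate (log2, SD, n = 2) and 0.669 ± 0.003 with sugars. At 18 h it was 1.23 ± 0.052 and 0.599 ± 0.0077, and at the start 0.831 ± 0.075. The part of this RNA quality measure in the results below was not tested directly, but each comparison was also run after a trend on gene length was removed from each array. In bulk cultures, fewer cells making a message and less message per cell cannot be told apart.

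The uptake transporter ZRT1 was high in both sugar groups and low in the other 3 groups. Its level was 7.62 and 8.25 on the arrays of the start, 8.44 and 8.46 in hydrolysate at 9 h, and 8.55 and 8.43 in hydrolysate at 18 h. Sugar-fed cells had 11.01 and 10.35 at 9 h, then 10.07 and 10.13 at 18 h. Every sugar array thus lay above every array of the start and of hydrolysate, and the 2 hydrolysate groups overlapped. Between the lowest and the highest group mean ZRT1 spanned 6.69-fold, the widest range among the 6 genes.

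ZRT2, the low-affinity transporter, had a similar order of groups with a narrower span. Its arrays read 9.72 and 9.51 at the start, 9.78 and 10.39 in hydrolysate at 9 h, and 10.16 and 10.48 in hydrolysate at 18 h. With the sugar feed they read 11.38 and 11.36 at 9 h, then 11.67 and 11.85 at 18 h. The hydrolysate groups overlapped each other and both lay below every sugar array. The group means of ZRT2 spanned 4.41-fold, rising from the start through both hydrolysate groups to the sugar feed at 9 h and then at 18 h.

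**Figure D1:**
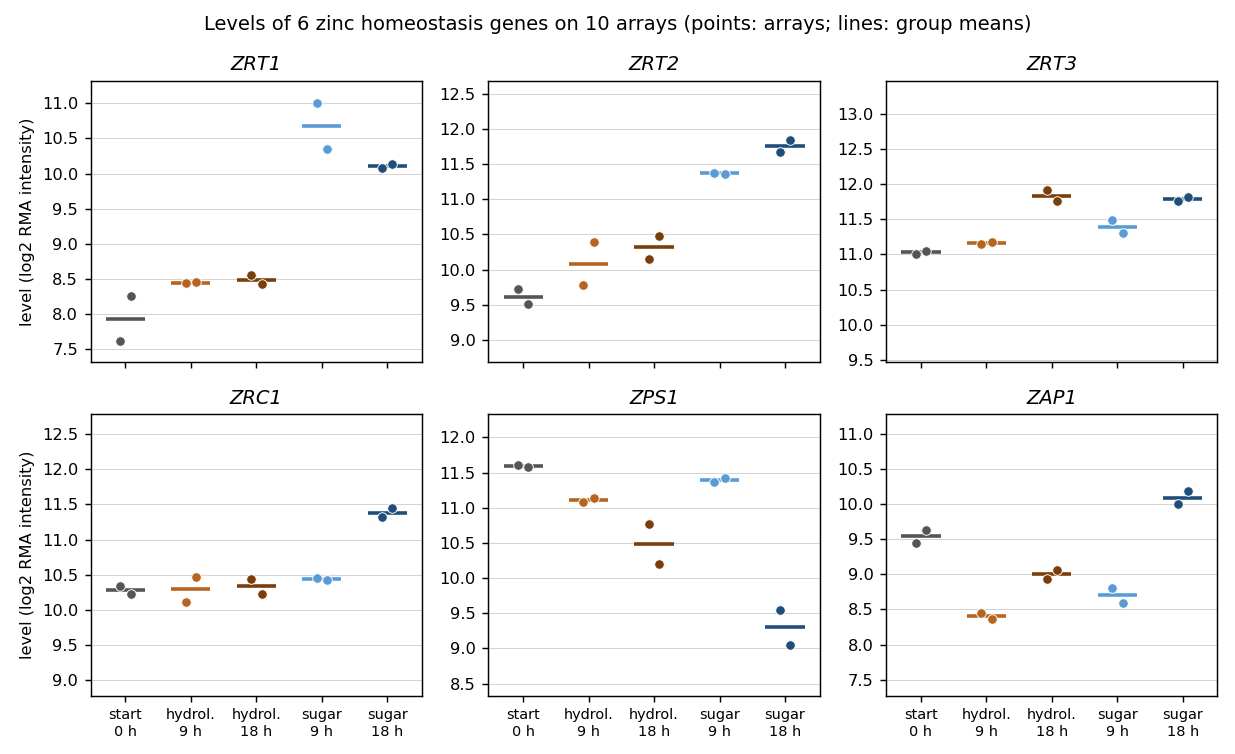
Level of each gene (log2 RMA intensity) on each of the 10 arrays, by group (points are arrays, lines are means of 2 arrays, and every panel spans 4 log2 units). ZRT1 and ZRT2 stand higher in the sugar feed than in the other groups at both times, ZRC1 stands apart only at 18 h of the sugar feed, and ZPS1 is lowest there.

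The vacuolar exporter gene ZRT3 moved least, over a 1.75-fold range. Its level was 11.01 and 11.05 at the start, 11.15 and 11.18 in hydrolysate at 9 h, and 11.49 and 11.31 in the sugar feed at 9 h. At 18 h it was 11.92 and 11.75 in hydrolysate and 11.76 and 11.82 in the sugar feed, where both feeds overlapped. The order of ZRT3 therefore followed time, with the start lowest and both groups of 18 h highest.

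ZRC1, the vacuolar importer, stood at one level in 4 of the 5 groups. Its arrays read 10.34 and 10.23 at the start, 10.12 and 10.47 in hydrolysate at 9 h, 10.44 and 10.23 in hydrolysate at 18 h, and 10.45 and 10.43 in the sugar feed at 9 h. Each of these groups overlapped its neighbour in the order of means. In the sugar feed at 18 h ZRC1 read 11.32 and 11.45, above all other arrays, and its group means spanned 2.14-fold.

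ZPS1, the surface protein gene, was highest at the start and lowest in the sugar feed at 18 h. It read 11.61 and 11.57 at the start. At 9 h it read 11.36 and 11.43 with sugars, 11.08 and 11.14 with hydrolysate. At 18 h it read 10.77 and 10.2 in hydrolysate and 9.55 and 9.04 in the sugar feed. No 2 neighbouring groups overlapped, and the span of the means was 4.9-fold. The arrays of each feed at 18 h differed more from each other than those of the earlier groups.

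ZAP1, the gene of the activator, was low at 9 h in both feeds and highest in the sugar feed at 18 h. Its level was 9.45 and 9.64 at the start, 8.45 and 8.37 in hydrolysate at 9 h, and 8.81 and 8.6 in the sugar feed at 9 h. At 18 h it was 8.93 and 9.06 in hydrolysate and 9.99 and 10.18 in the sugar feed. Neighbouring groups of ZAP1 did not overlap, and the means spanned 3.2-fold.

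At 9 h the 2 feeds were compared to see how hydrolysate, beyond its sugars, bears on expression. Both uptake transporter genes were lower in hydrolysate and the other 4 genes were not called. Differences were tested with limma on the 10 arrays together, and a gene was called where its p-value, adjusted by the Benjamini-Hochberg method over all 5654 genes, was under 0.05. Thus 2 of 6 genes were lower and 0 higher, where 9.67% of all genes were called, 3.91% lower and 5.77% higher. The median difference of the 6 genes was -0.29, against 0.027 over all genes. ZRT1 differed by -2.23 (log2, SE 0.25, limma adjusted p = 0.00346), which is 4.69-fold lower, and was the 21st lowest value among all genes. ZRT2 differed by -1.28 (SE 0.212, limma adjusted p = 0.017), 2.43-fold lower. ZAP1 itself differed by -0.29 (limma adjusted p = 0.185), with a 95% interval from -0.62 to 0.04. ZPS1 (-0.29), ZRT3 (-0.23) and ZRC1 (-0.14) had adjusted p between 0.227 and 0.539.

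At 9 h the 2 calls differed in how they held. ZRT1 stayed called without each array in turn (adjusted p up to 0.0317), but had an adjusted p = 0.0508 when only the 4 arrays compared were fitted with limma. ZRT2 lost its call without hydrolysate replicate 1 (-0.97), without sugar replicate 1 (-1.27) and without sugar replicate 2 (-1.29). It also lost it with only the arrays compared (-1.28, limma adjusted p = 0.114). Among these settings the difference itself moved much only without hydrolysate replicate 1. The authors' deposited table called ZRT1 lower at 9 h (adjusted p = 0.0234) and none of the other 5 genes.

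**Figure D2:**
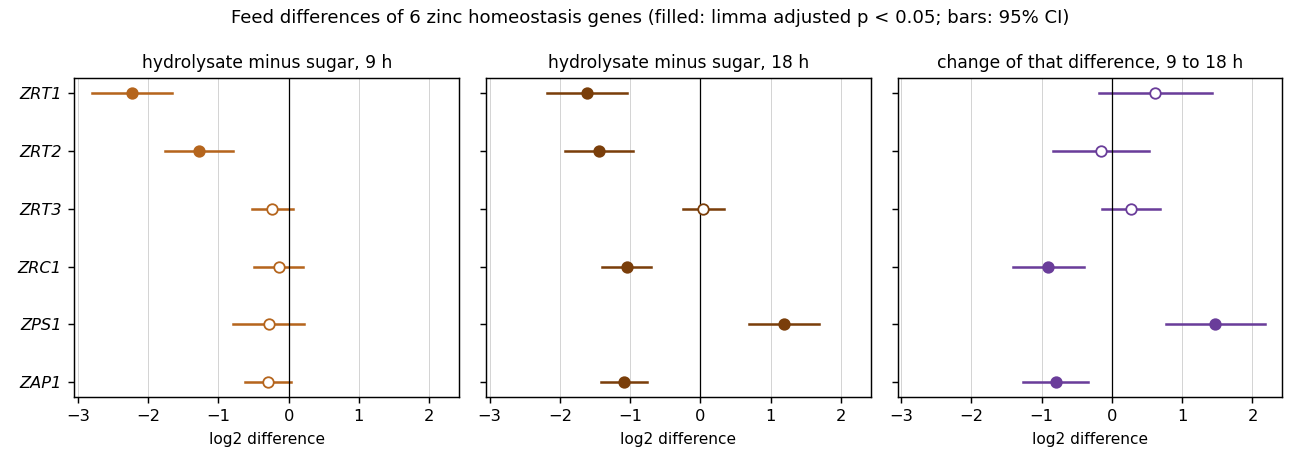
Log2 difference between hydrolysate and sugar feed at 9 h, at 18 h, and the change of that difference between the times, for each gene (points are limma estimates, bars 95% intervals, filled points have an adjusted p under 0.05). ZRT1 and ZRT2 lie well below 0 at both times, while ZRC1, ZAP1 and ZPS1 leave 0 only at 18 h.

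The feeds were compared again at 18 h. ZRT1, ZRT2, ZAP1 and ZRC1 were lower in hydrolysate, ZPS1 was higher and ZRT3 was not called. These 4 lower and 1 higher of 6 stand beside 30.8% and 31.2% of all genes, 61.9% in either direction, so a call was common at this time. The median of the 6 genes was -1.07, against 0.0064 over all genes. ZRT1 differed by -1.61 (SE 0.25, limma adjusted p = 0.000744) and ZRT2 by -1.44 (SE 0.212, adjusted p = 0.000583), which is 3.06-fold and 2.72-fold lower. ZAP1 differed by -1.09 (SE 0.143, adjusted p = 0.000355) and ZRC1 by -1.05 (SE 0.155, adjusted p = 0.000598). ZPS1 differed by 1.19 (SE 0.218, limma adjusted p = 0.00175), 2.27-fold higher. The value of ZRT3 was 0.04, with a 95% interval from -0.25 to 0.33.

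All 5 calls at 18 h held without each array in turn, with the largest adjusted p at 0.0166 for ZPS1. Removing the length trend left all 5 called. The authors' deposited table, which gives this time as 17 h, called none of the 6 genes. The same table gave a t score of -2.57 for ZRT1 and of exactly 0 for ZRT3, whose log2 difference was not 0. At both times its t score was exactly 0 for each of these genes that differed by less than 2-fold, and not 0 for the others. Its test is not described in the sources used here, and its calls cannot be set against those made here as results of the same test.

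The change of the feed difference from 9 h to 18 h was called for 3 of 6 genes, 2 lower and 1 higher, where 27.4% of all genes were called, 13.1% lower and 14.3% higher. ZPS1 changed by 1.47 (SE 0.309, limma adjusted p = 0.0116), from no call at 9 h to higher in hydrolysate. ZRC1 changed by -0.91 (adjusted p = 0.019) and ZAP1 by -0.80 (adjusted p = 0.0223). For ZRT1 the change was 0.62, with a 95% interval from -0.19 to 1.43, and for ZRT2 -0.16, from -0.85 to 0.52. The calls of ZRC1 and ZAP1 were lost without single arrays, with adjusted p up to 0.0775 for ZRC1 and 0.0946 for ZAP1 (both without sugar replicate 2 at 18 h), and ZAP1 lost it with the length trend removed (-0.55, 0.0522). ZRC1 also lost it under spike-in scaling (-1.11, limma adjusted p = 0.052). ZPS1 kept the call without each array (adjusted p up to 0.0491).

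The start of the feed differs from the other groups in a technical measure, the hybridization spike-ins, which are added before hybridization. They read 11.69 ± 0.265 (log2, SD, n = 2) on the arrays of the start, and the means of the other groups lay from 10.44 to 10.75. Scaling each array to them raised every difference from the start by 0.938 to 1.25, and the median over all genes with it, from 0.034 to 1.26 in hydrolysate at 9 h for example. Differences from the start given below are therefore relative to the other genes, as RMA leaves them. Under spike-in scaling ZAP1 turned to 0.09 and 0.39 in hydrolysate (9 h and 18 h) and to 0.40 in the sugar feed at 9 h, none of them called. ZPS1 turned to 0.74 in hydrolysate (limma adjusted p = 0.0164) and 1.05 in the sugar feed at 9 h (adjusted p = 0.00185), both called higher, and lost its call in hydrolysate at 18 h (-0.17, 0.561). In hydrolysate ZRT1 and ZRC1 gained calls at both times under that scaling, ZRT2 and ZRT3 did so at 9 h, and so did ZRC1 with the sugar feed at 9 h. Between feeds the scaling moved all differences by -0.0206 at 9 h and by -0.226 at 18 h, and each of the 6 genes kept its call or lack of one, while the uncalled ZRT3 turned to -0.18 at 18 h.

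Against the start, 4 of the 6 genes were called with sugars at 9 h and 6 at 18 h, while with hydrolysate 1 and 4 were called. All these comparisons share the arrays of the start. In the sugar feed at 9 h, ZRT1 was 6.69-fold higher (2.74, SE 0.25, limma adjusted p = 3.11e-05), ZRT2 3.37-fold higher (1.75, adjusted p = 0.000137) and ZRT3 1.29-fold higher (0.37, adjusted p = 0.0318). ZAP1 was lower at the same time (-0.84, adjusted p = 0.000909), and ZRC1 (0.15) and ZPS1 (-0.19) were not called. That made 3 higher and 1 lower of 6, beside 33.9% and 32.2% of all genes (66.2% in either direction). The call of ZRT3 was lost with the length trend removed (0.12, adjusted p = 0.386), with a replicate block (0.0504), with only the arrays compared (0.0861) and without either start array, without sugar replicate 1 at 9 h or without either sugar array at 18 h (up to 0.172).

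In the sugar feed at 18 h all 6 genes differed from the start, 5 higher and 1 lower, beside 36.8% and 29.7% of all genes (66.5% in either direction). ZRT1 (2.16, limma adjusted p = 0.000131) and ZRT2 (2.14, adjusted p = 6.95e-05) were 4.48-fold and 4.41-fold higher. ZRC1 rose by 1.10 (adjusted p = 0.000353), ZRT3 by 0.76 (adjusted p = 0.000885) and ZAP1 by 0.54 (adjusted p = 0.00924). ZPS1 was 4.9-fold lower (-2.29, SE 0.218, limma adjusted p = 5.96e-05). The rise of ZAP1 was lost without sugar replicate 2 at 18 h (0.45, adjusted p = 0.0784), and its value was -0.06 (0.682) with the length trend removed, which turns its direction.

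**Figure D3:**
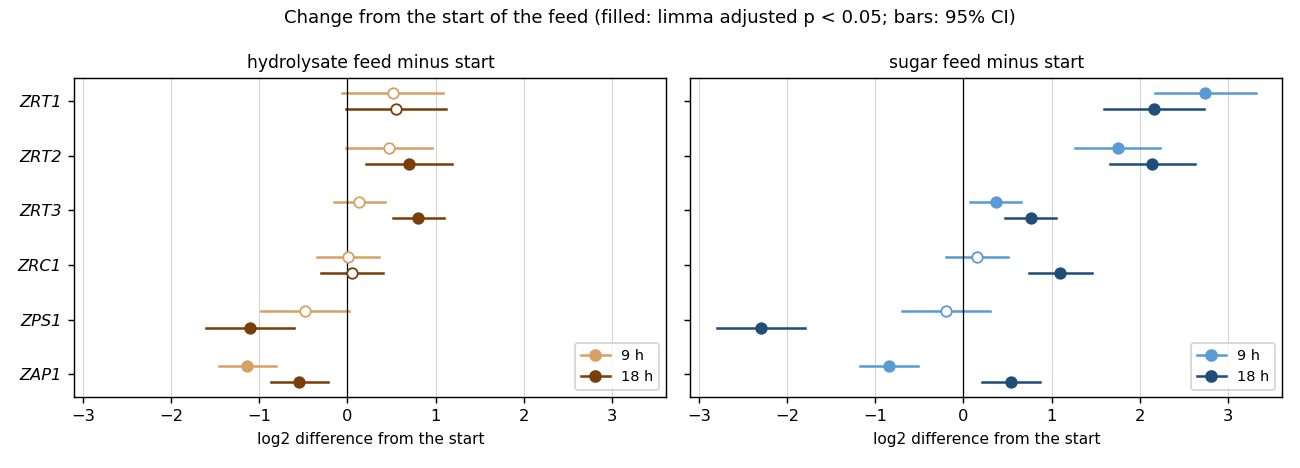
Log2 difference of each gene from the start of the feed, at 9 h and 18 h of the hydrolysate feed (left) and of the sugar feed (right) (points are limma estimates, bars 95% intervals, filled points have an adjusted p under 0.05). ZRT1 and ZRT2 lie far above 0 in the sugar feed at both times and between 0.47 and 0.70 in hydrolysate, and ZPS1 lies furthest below 0 in the sugar feed at 18 h.

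In hydrolysate at 9 h only ZAP1 differed from the start. It was 2.19-fold lower (-1.13, SE 0.143, limma adjusted p = 0.000201), so that 1 of 6 genes was lower and 0 higher, beside 29.1% and 33.6% of all genes (62.7% in either direction). ZRT1 (0.51, adjusted p = 0.104) and ZRT2 (0.47, adjusted p = 0.0817) had intervals from -0.06 to 1.08 and from -0.01 to 0.95. ZPS1 (-0.48), ZRT3 (0.13) and ZRC1 (0.01) were not called either. Single arrays moved both transporter genes. ZRT1 read 0.83 without start replicate 2 (limma adjusted p = 0.024) and 0.20 without start replicate 1 (0.524). ZRT2 read 0.78 without hydrolysate replicate 1 at 9 h (0.00924) and 0.16 without replicate 2 (0.47). ZPS1 gained a call without either hydrolysate array at 18 h (0.0493).

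In hydrolysate at 18 h ZRT3 (0.81, limma adjusted p = 0.00099) and ZRT2 (0.70, adjusted p = 0.0215) were higher than at the start. ZPS1 (-1.11, adjusted p = 0.003) and ZAP1 (-0.55, adjusted p = 0.0117) were lower. These 2 and 2 of 6 compare with 33.2% of all genes higher and 22.2% lower (55.4% in either direction). ZRT1 was at 0.55 (adjusted p = 0.0908) and ZRC1 at 0.05. Without start replicate 2 ZRT1 read 0.87 (limma adjusted p = 0.0237), and without start replicate 1 it read 0.24 (0.461). ZRT2 lost its call without start replicate 2 (0.60, limma adjusted p = 0.0953) or hydrolysate replicate 2 at 18 h (0.54, 0.129), and after renewed quantile normalization (0.0675). ZAP1 lost it without start replicate 2 (-0.45, 0.053) or hydrolysate replicate 1 at 18 h (-0.48, 0.0726).

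Within the sugar feed, 3 genes were higher and 1 lower at 18 h than at 9 h, beside 31.9% and 27% of all genes (58.9% in either direction). ZPS1 fell by 2.10 on the log2 scale (SE 0.218, limma adjusted p = 0.000104), 4.28-fold. ZAP1 rose by 1.39 (adjusted p = 0.000102), ZRC1 by 0.95 (adjusted p = 0.000939) and ZRT3 by 0.40 (adjusted p = 0.0255). ZRT1 (-0.58, adjusted p = 0.0762) and ZRT2 (0.39, adjusted p = 0.145) were not called. Both sugar arrays of 9 h moved ZRT1, which read -0.91 without replicate 2 (limma adjusted p = 0.0228) and -0.25 without replicate 1 (0.446). ZRT1 also gained a call without either start array (0.0407) and under spike-in scaling (-0.66, 0.0344), and ZRT2 with only the arrays compared (0.0216). ZRT3 lost its call without sugar replicate 2 at 9 h (0.149) or either sugar array at 18 h (up to 0.128), after renewed quantile normalization (0.0634) and under spike-in scaling (0.31, 0.282).

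Within hydrolysate, ZRT3 (0.67, SE 0.127, limma adjusted p = 0.00516) and ZAP1 (0.59, SE 0.143, adjusted p = 0.0147) were higher at 18 h than at 9 h. That was 2 of 6 higher and 0 lower, beside 18% and 17.1% of all genes (35.2% in either direction). ZPS1 was at -0.63 (adjusted p = 0.0543), ZRT2 at 0.23, ZRT1 at 0.04 and ZRC1 at 0.04. The call of ZAP1 was lost without hydrolysate replicate 2 at 18 h (0.52, 0.0846), while ZPS1 read -0.91 without replicate 1 (limma adjusted p = 0.0273) and -0.34 without replicate 2 (0.301). ZPS1 also gained a call with a robust trended prior (0.0464), after renewed quantile normalization (-0.67, 0.0488) and under spike-in scaling (-0.91, 0.0183). Scaling to the spike-ins, which moved every difference of this comparison by -0.289, left ZRT3 at 0.38 (0.245) and ZAP1 at 0.30 (0.373), neither called.

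Other genes of zinc transport and sensing were read from a list of 10, all measured. At 9 h 1 was higher and 2 were lower in hydrolysate, beside 5.77% and 3.91% of all genes, with a median of 0.36 against 0.027 over all genes. FET4, a low-affinity iron transporter of the plasma membrane that also carries zinc and is a Zap1 target, read 7.64 and 6.58 in hydrolysate against 10.01 and 9.63 in the sugar feed. The hydrolysate arrays lay below both sugar arrays (-2.71, SE 0.306, limma adjusted p = 0.00351). YKE4, a zinc transporter of the ZIP family in the endoplasmic reticulum, was lower (-0.94, adjusted p = 0.0154), and IZH3, a member of the membrane progestin receptor family linked to zinc, was higher (1.09, adjusted p = 0.0296).

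At 18 h 1 gene of that list was higher and 4 were lower, beside 31.2% and 30.8% of all genes, with a median of -0.46 against 0.0064 over all genes. FET4 (-1.50, limma adjusted p = 0.00294), YKE4 (-1.09, adjusted p = 0.000303), IZH1 (-1.05) and MSC2 (-0.62), which supplies zinc to the endoplasmic reticulum, were lower, and IZH2 (1.41) was higher. ZRG17, the partner of MSC2, read -0.30, and COT1, a vacuolar importer beside ZRC1, 0.33, neither called. Against the start, 4 genes of that list were higher and 3 lower in hydrolysate at 9 h, beside 33.6% and 29.1% of all genes. At 18 h of hydrolysate 5 were higher and 1 lower, beside 33.2% and 22.2%. With sugars 5 were higher and 2 lower at 9 h (33.9% and 32.2%), then 6 and 0 at 18 h (36.8% and 29.7%). IZH1 to IZH4 were all higher in hydrolysate at both times, by 0.85 (IZH3, 18 h) to 3.35 (IZH4, 18 h). The arrays of IZH4 in hydrolysate at 18 h read 10.53 and 12.36. IZH1 and IZH3 were also higher at both times with sugars. IZH2 was higher with sugars at 9 h (0.85) and not called at 18 h (0.59). IZH4 was not called with sugars at 9 h (0.78) and was higher at 18 h (4.56). YKE4 was higher in the sugar feed at 9 h (0.42) and 18 h (0.69) and lower in hydrolysate (-0.52 and -0.40). FET4 was higher in the sugar feed at 9 h (1.69) and lower in hydrolysate at 9 h (-1.02), and at 18 h neither value was called (0.75 and -0.75).

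A second list held 27 further genes reported as activated by Zap1, 4 of them also in the first list, and all had a probe set. VEL1 (3.66 to 4.58) lay below the background on every array, so its lack of a call does not show an unchanged level. YOL131W lay below it on both sugar arrays at 9 h (4.49 and 4.77) and on hydrolysate replicate 2 at 9 h (4.67). At 9 h 2 were higher, 3 lower and 22 not called, beside 5.77% higher and 3.91% lower of all genes, with a median of 0.12 against 0.027. The lower ones were FET4, the Zap1 target RTC4 (-0.57) and MNT2, a mannosyltransferase gene (-0.53), and the higher ones KTI12 (0.93) and URA10 (0.89). ADH4, the alcohol dehydrogenase gene beside ZRT1, read -0.30 and was not called. At 18 h 12 were higher and 10 lower, where 31.2% and 30.8% of all genes were called, with a median of 0.19 against 0.0064 over all genes. The largest were MUP1, the methionine permease gene (-3.58), ADE17 of purine synthesis (3.18), the repressor gene NRG2 (2.86) and MCD4 of membrane anchor synthesis (1.95). ADH4 was lower at 18 h (-0.72), and TSA1, a peroxiredoxin gene, read 0.12 and 0.04 at the 2 times. In the sugar feed at 9 h, where ZRT1 was highest, 12 of the 27 were higher and 4 lower than at the start, beside 33.9% and 32.2% of all genes, with a median of 0.39 against -0.0049 over all genes. In hydrolysate at 9 h 13 were higher and 4 lower, beside 33.6% and 29.1% of all genes, with a median of 0.28 against 0.034.

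**Figure D4:**
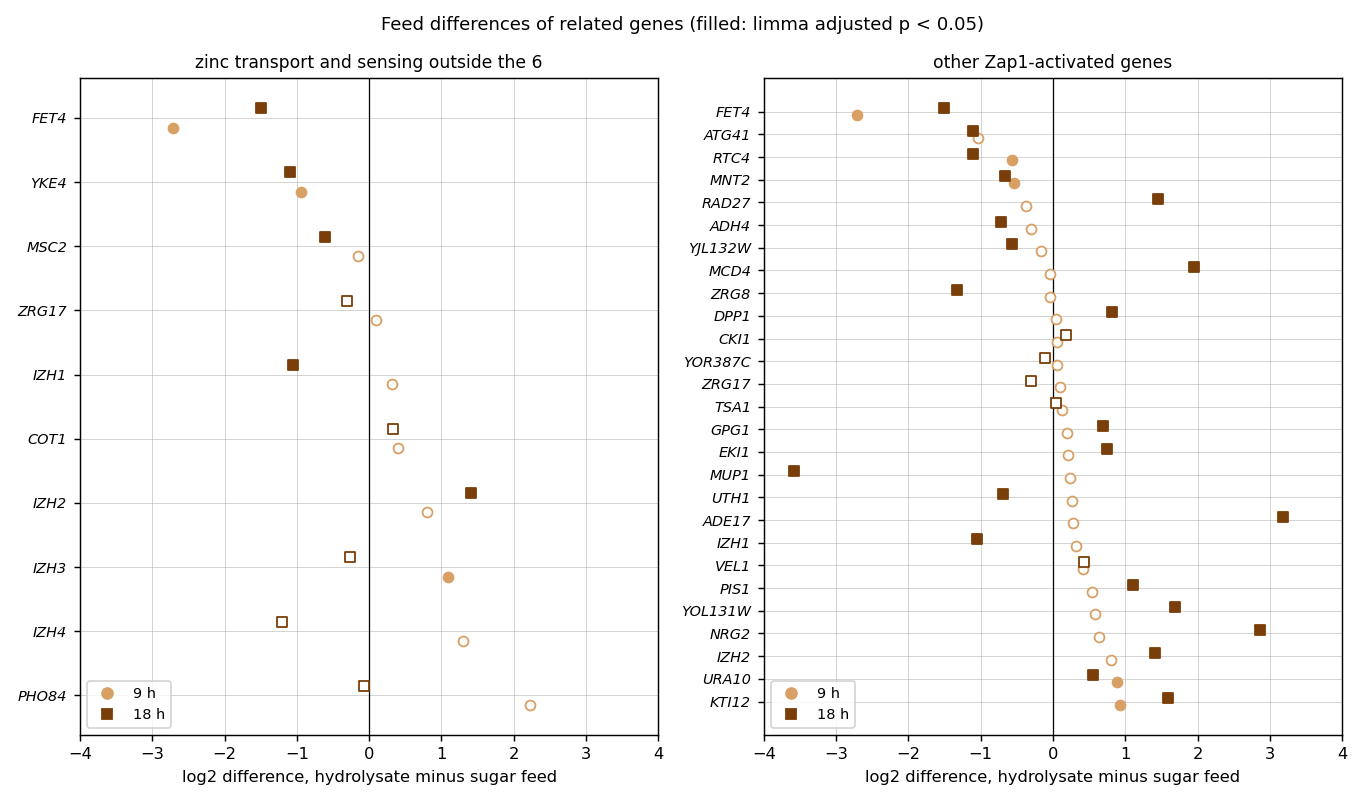
Log2 difference between hydrolysate and sugar feed at 9 h (circles) and 18 h (squares) for 10 genes of zinc transport and sensing (left) and 27 further Zap1-activated genes (right), filled where the limma adjusted p was under 0.05. Within each list genes lie on both sides of 0, with FET4 lowest at 9 h. At 18 h 12 Zap1-activated genes were called higher and 10 lower, beside 31.2% and 30.8% of all genes.

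ADH1 and ADH3, alcohol dehydrogenase genes known to be repressed through Zap1 in zinc shortage, moved at different times. ADH1 was higher in hydrolysate at 9 h (0.63) and read -0.17 at 18 h, and ADH3 read 0.25 at 9 h and was higher at 18 h (1.25). Among 12 genes of zinc-dependent enzymes, 1 was higher and 1 lower at 9 h, where 5.77% and 3.91% of all genes were called, with a median of 0.050 against 0.027. At 18 h 2 were higher and 3 lower, where 31.2% and 30.8% of all genes were called, with a median of -0.16 against 0.0064. XYL2, encoding xylitol dehydrogenase, was lower at both times (-1.33 and -2.38), while SOD1, the copper and zinc superoxide dismutase gene, read 0.09 and -0.05. The call of XYL2 at 9 h was close to the threshold (limma adjusted p = 0.0465), and its hydrolysate arrays read 8.92 and 10.14.

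The genes most like each of the 6 over the 10 arrays were looked up among 3317 or 3318 others whose SD over arrays was at least 0.5. The 10 points of such a correlation share 5 groups of 2 and are given as a description. The levels of ZRT1 were followed most closely by YBL113C (Pearson r = 0.960), SFH1, a chromatin remodelling subunit gene (0.934), and CBF1, a regulator of sulfur genes (0.920). ZRT2 was most like SEC39 (0.989), BNA5 of the kynurenine pathway (0.986) and SPT10 (0.968). Closest to ZRT3 were the glucan synthase gene GSC2 (0.977), YLR046C (0.939) and SIR1 of gene silencing (0.925). ZRC1 was followed by the DNA repair gene TDP1 (0.974), SCM3 (0.970) and THP1 (0.969), and ZAP1 by YGL036W (0.985), AST2 (0.984) and BIO5 (0.980). ZPS1 was most like the septin gene CDC10 (0.961), PEA2 (0.960) and LSC2, a gene of the citric acid cycle (0.959). None of the 6 was among the closest 3 of another. ZRT3 (SD 0.347) and ZRC1 (SD 0.458) could not be, because genes with an SD under 0.5 were not searched. ZRT1 and ZRT2 correlated at 0.896 with each other, and ZRT1 and ZAP1 at 0.124, while ZPS1 correlated negatively with the other 5 genes (-0.326 with ZRT1 to -0.828 with ZRC1).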

How the data were processed

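The deposited log2 values are probe set intensities. Per the submitters' processing notes the authors used RMA, R 4.2.1, limma 3.52.4 and affy 1.74.0, with no order or role given. RMA sets all arrays to 1 distribution, so values are relative to other genes. The authors' deposited table also gives p-values (raw and adjusted), log2 differences, t scores and calls (a score of 1, 0 or -1) for each feed comparison, per the file headers. Its log2 differences for the 6 genes differed from those computed here by at most 4.82e-14. Its 10 per-array columns were not used.

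Of 10928 probe sets, 10925 were annotated, 5811 as S. cerevisiae. The 5703 with a gene name gave 5654 genes. For 47 genes with several probe sets the one with the highest mean was taken. Background was the 95th percentile of the 5028 S. pombe probe sets. All 9 comparisons came from 1 fit (limma 3.58.1, R 4.3.3, functions lmFit and eBayes, 3.49 prior and 5 residual degrees of freedom), with Benjamini-Hochberg adjustment, and the script was tested on simulated data. P-values set a difference against the spread between replicate arrays, pooled over the 5 groups and drawn towards that of all genes. Alternatives tried were only the arrays compared, genes above background on at least 2 arrays, a robust trended prior, a replicate block, a random block, all probe sets, quantile normalization, median centring, spike-in scaling, a 2-fold minimum, each array left out, the authors' calls and, chosen after seeing the data, removal of the length trend and a crossed replicate block.

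The rule named all 6 genes, up to 4 called genes of a list in a described comparison (here more in some, and uncalled ones of known role, these additions chosen with values known) and, per gene, its 3 closest by correlation. Members and lists were chosen with earlier results of these data known.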

Additional observations from a re-analysis of the deposited data

Results flagged for a closer look

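The feed difference changed between 9 h and 18 h for 3 of the 6 genes, by limma's test of that change, where 27.4% of all genes were called. The calls of ZRC1 and ZAP1 were lost without single arrays and with a 2-fold minimum, and that of ZPS1 was kept. ZPS1 changed by 1.47, with group means of 11.11 (hydrolysate) and 11.4 (sugar) at 9 h and 10.48 and 9.3 at 18 h. ZRC1 changed by -0.906, with means of 10.29 and 10.44 at 9 h and 10.33 and 11.39 at 18 h. ZAP1 changed by -0.798, with means of 8.41 and 8.7 at 9 h and 9 and 10.09 at 18 h. In each of the 3 genes the sugar feed moved more between the times than the hydrolysate feed did. The 3′ minus 5′ signal of the control genes also changed between the times, upward in hydrolysate (0.96 to 1.23) and downward in the sugar feed (0.669 to 0.599), and its part in these changes was tested only through gene length.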

How the results depend on the processing

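Values are numbers of the 6 genes called unless said otherwise. Counts over all genes stand beside them here only for spike-in scaling. The other numbers therefore do not set the 6 genes apart from all genes. With only the arrays compared, 0 were called between feeds at 9 h (2 in the reported fit). With a 2-fold minimum the change between times had 1 call, hydrolysate against the start 1 at 18 h, sugar at 9 h against the start 2, and 18 h against 9 h had 0 in hydrolysate and 2 in sugar. Spike-in scaling gave 5 in hydrolysate at 9 h against the start, where 4293 of all 5654 genes were called higher and 209 lower. It gave 1 in hydrolysate at 18 h against 9 h, where 236 of all genes were called higher and 1202 lower. The authors' calls gave 1 and 0 for the feeds at 9 h and 18 h. Leaving out each array in turn gave 1 to 2 for the feeds at 9 h, 5 to 5 at 18 h, 1 to 3 for the change, 1 to 2 and 3 to 4 for hydrolysate against the start, 3 to 4 and 5 to 6 for sugar against the start, 1 to 3 within hydrolysate and 3 to 5 within sugar. Other alternatives kept these numbers within 1.5 times.

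Of the single values under alternatives other than leaving out an array, 550 kept direction and side of the threshold, 26 lost and 12 gained a call and 18 turned direction. With an array left out these were 495, 25, 9 and 11. With ZRC1 against the start in hydrolysate, quantile normalization gave -0.034 (9 h) and -0.025 (18 h), median centring -0.059 and -0.044, and removal of the length trend -0.19 and -0.089. Length removal also turned ZRT3 in hydrolysate at 9 h (-0.091), ZRC1 (-0.055, sugar, 9 h) and ZAP1 (-0.063, sugar, 18 h), each against the start. Spike-in scaling turned ZRT3 between feeds at 18 h (-0.18), ZAP1 (0.093, 0.39 and 0.40) and ZPS1 (0.74 and 1.05) against the start as reported, and within hydrolysate ZRT1 (-0.25), ZRT2 (-0.060) and ZRC1 (-0.25). The cause of these turns was not tested. With an array left out, values that turned direction ranged for ZRC1 from -0.32 to 0.033 (feeds, 9 h), -0.17 to 0.19 (hydrolysate 9 h against start), -0.059 to 0.16 (18 h against start) and -0.14 to 0.22 (within hydrolysate). They ranged for ZRT2 from -0.47 to 0.14 (change of the feed difference) and -0.077 to 0.53 (within hydrolysate), for ZRT3 from -0.039 to 0.13 (feeds, 18 h) and for ZRT1 from -0.020 to 0.10 (within hydrolysate). None of these was called in the reported fit.

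Differences between replicates 1 and 2 correlated between groups at -0.204 to 0.13, above 0.1 in 1 of 10 pairs of groups. These values cannot settle whether arrays of the same replicate number belong together. A replicate block changed the call of 1 of the 6 genes, ZRT3 in the sugar feed at 9 h (0.37, adjusted p = 0.0504), and no other. With the sugar feed's numbers at 9 h crossed, 2 genes were called between feeds at 9 h and 4 in that feed against the start, as in the reported fit. Over all genes, 326 higher and 221 lower calls between feeds at 9 h became 200 and 137 with the block and 148 and 84 with spike-in scaling. Spike-in scaling moved the share of higher among all called genes from 50.3% to 37.6% (feeds, 18 h), 52.3% to 35.3% (change), 51.3% to 16.4% (within hydrolysate) and to between 92.2% and 95.4% against the start. The planned search for the zinc response element in promoters was not run. Standard errors from 0.127 (ZRT3) to 0.25 (ZRT1) for a difference of 2 groups, and from 0.18 to 0.354 for the change of the feed difference, limit what 2 arrays a group can show.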
